A study of Mus musculus with 7 samples.

Results

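The 8 genes described here are those of extracellular ATP and NAD sensing, chosen by name from a table of 55357 genes, and each name matched 1 row: the ADP-ribosyltransferase Art2b, the receptors P2rx7, P2rx4 and P2ry10, the NAD-consuming ectoenzymes Cd38 and Bst1, the ATP channel Panx1 and the NAD salvage enzyme Nampt. They were measured by RNA-seq in live CD45+ CD8+ cells sorted from subcutaneous MCA205 tumours, a transplantable mouse fibrosarcoma, 14 days after implantation. The hosts were C57Bl/6 WT mice (3 libraries, replicates 1, 2 and 3) or ENT1KO mice, genotype Slc29a1-/-, which lack the equilibrative nucleoside transporter ENT1 (4 libraries, replicates 11, 12, 14 and 15). The same tumour line was implanted in both, so the genotype is that of the host and of the sorted cells and not of the tumour cells. The labels give no age or sex and do not say whether each library is 1 animal, so p-values measure the spread between these libraries, which may be technical.

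Dying and activated cells release ATP and NAD into the tissue, ATP in part through pannexin 1 channels. P2X7 is an ion channel that opens at high extracellular ATP, and in mouse T cells it can also be gated by ADP-ribosylation, for which ART2.2, the product of Art2b, uses extracellular NAD. CD38 and BST1 (CD157) are surface enzymes that consume NAD, and NAMPT is the rate-limiting enzyme that rebuilds NAD from nicotinamide inside the cell.

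Promoter sequences are shown for the 2 members with the largest rise and the 2 P2X receptor genes, which fell together. They are RefSeq entries on GRCm38.p6, an older build than the GRCm39 positions given below, and span 250 bases before to 50 after the annotated start, on the strand of the gene. Capitals mark matches on either strand to TGTGGT, the core bound by RUNX factors, or GAGGAA, the core bound by PU.1. The 2 motifs were searched separately and overlaps were allowed. TGTGGT or its complement stands in 16.8% of all 32851 promoter entries and GAGGAA or its complement in 28.3%. A match is a description of the letters only. Where the table holds 2 starts (P2rx7 and P2ry10), the first is shown.
Art2b, chr7:101581112-101581411, minus strand: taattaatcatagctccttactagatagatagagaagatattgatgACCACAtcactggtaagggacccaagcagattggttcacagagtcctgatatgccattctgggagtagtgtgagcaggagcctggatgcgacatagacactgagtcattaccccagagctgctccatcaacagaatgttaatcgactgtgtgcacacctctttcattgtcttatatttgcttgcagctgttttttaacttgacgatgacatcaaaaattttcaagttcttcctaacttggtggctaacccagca
P2ry10, chrX:107088242-107088541, plus strand: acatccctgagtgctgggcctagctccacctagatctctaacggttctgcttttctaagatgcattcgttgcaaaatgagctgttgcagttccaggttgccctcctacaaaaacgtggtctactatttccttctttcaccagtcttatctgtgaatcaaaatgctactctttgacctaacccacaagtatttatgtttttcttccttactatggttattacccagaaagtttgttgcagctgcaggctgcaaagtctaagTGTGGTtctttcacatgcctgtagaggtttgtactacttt
P2rx7, chr5:122643677-122643976, plus strand: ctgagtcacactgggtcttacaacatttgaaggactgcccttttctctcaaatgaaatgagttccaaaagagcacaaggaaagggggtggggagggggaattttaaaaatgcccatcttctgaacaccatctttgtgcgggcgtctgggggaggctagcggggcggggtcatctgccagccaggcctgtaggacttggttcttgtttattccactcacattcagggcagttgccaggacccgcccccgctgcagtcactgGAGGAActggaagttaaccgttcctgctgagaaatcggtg
P2rx4, chr5:122707294-122707593, plus strand: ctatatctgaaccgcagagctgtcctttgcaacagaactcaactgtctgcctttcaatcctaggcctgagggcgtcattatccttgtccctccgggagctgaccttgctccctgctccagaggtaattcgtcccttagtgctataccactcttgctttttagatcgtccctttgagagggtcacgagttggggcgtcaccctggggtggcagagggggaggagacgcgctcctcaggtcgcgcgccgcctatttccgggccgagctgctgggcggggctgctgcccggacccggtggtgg
The risers Art2b and P2ry10 each held 1 RUNX core and no PU.1 core in the entry shown. The second P2ry10 start held 2 RUNX cores and 1 PU.1 core. P2rx7 held 1 PU.1 core and no RUNX core, and P2rx4 held neither. Of the others, Panx1 held 2 RUNX cores, and Cd38 and Nampt held neither motif. Promoters were found for 7 of the 8 members, and Bst1 was not among them.

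The libraries differed in more than genotype. Depth was nearly equal, at 18624318 to 19660792 reads per library, an estimate from the step size of the normalized counts that is less certain for WT replicates 1 and 3, whose step is close to 1. All 16 genes of a CD8 T cell identity list were at 1 TPM (a length-corrected transcript level scaled to 1 sum in every library) or more in every library, but their sum was 9516 to 11709 TPM in ENT1KO and 2975 to 7183 TPM in WT. A list of 17 macrophage and monocyte genes, led by Lyz2 and Apoe, summed to 238 to 1596 TPM in ENT1KO and 4002 to 5969 TPM in WT, and none of them was at 0 in any library. A list of 17 fibroblast and tumour cell genes, led by Postn and Col3a1, summed to 6.73 to 877 TPM in ENT1KO and 4198 to 7931 TPM in WT, with Col6a1, Col5a1, Mgp and Lum at 0 in at least 1 ENT1KO library. In bulk RNA, fewer cells of a type and less RNA per cell cannot be told apart. Slc29a1 itself was at 13.2 to 17.6 TPM in ENT1KO and 49.7 to 58.9 TPM in WT, lower in every ENT1KO library but not at 0. Which part of the gene the allele lacks is not stated in the labels.

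In ENT1KO 4 of the 8 genes were higher and 4 were lower than in WT. Art2b, P2ry10, Panx1 and Cd38 rose, by 5.21, 2.37, 1.54 and 1.58 times in mean TPM, and Bst1, P2rx7, P2rx4 and Nampt fell, by 3.86, 3.15, 2.46 and 1.46 times. All 8 passed an adjusted p of 0.05 in limma-trend on log2(TPM + 1), fitted and adjusted over 13798 genes, of which 50.6% passed, 27.5% higher and 23.1% lower. A call by itself is therefore common in these data. The 8 genes were chosen with earlier results of these data known, so their number passing does not measure an excess. On the authors' normalized counts, which put the median of all genes at 0 and not at 0.15, 48.9% of genes passed, 21% higher and 28% lower, and all 8 kept their direction and call. The authors' deposited table also has all 8 under an adjusted p of 0.05 in these directions, where 42.3% of the genes it adjusted were, 16.5% higher and 25.8% lower. All 8 members were among the genes tested, each with at least 1 TPM in all 7 libraries except Art2b, which reached it in 4 ENT1KO and 2 WT libraries. The groups did not overlap for 7 of the 8, Nampt being the exception, and did not overlap for 55.2% of all genes tested, 30.3% higher and 24.9% lower. The plot of TPM by library shows these values.

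**Figure D1:**
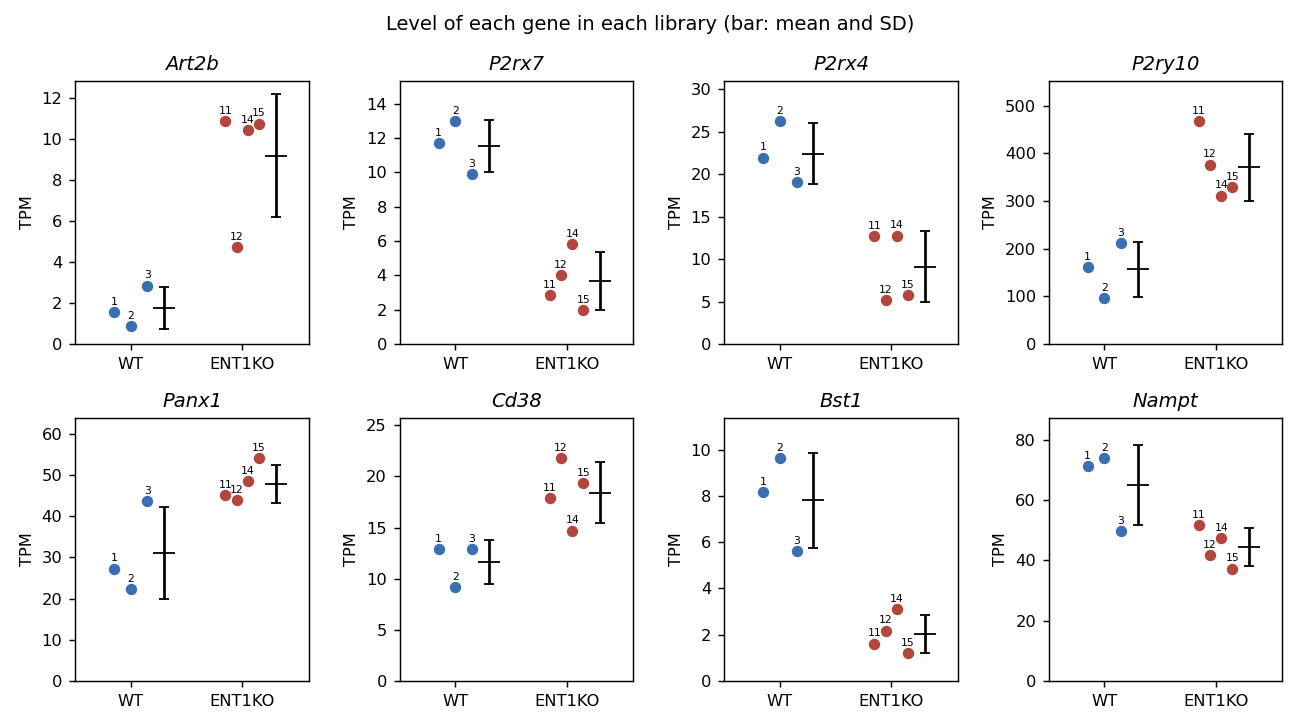
TPM of the 8 genes in each library (points, labelled by replicate), with the mean and SD of each genotype (n = 3 WT, n = 4 ENT1KO) as a bar, each axis starting at 0. Art2b, P2ry10, Panx1 and Cd38 sit higher in ENT1KO, and P2rx7, P2rx4, Bst1 and Nampt lower, with overlap between the groups in Nampt.

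Art2b (chromosome 7, 101226177 to 101234807, GRCm39) encodes the ADP-ribosyltransferase that modifies surface proteins of T cells, P2X7 among them. Replicates 11, 12, 14 and 15 of ENT1KO gave 10.9, 4.72, 10.4 and 10.8 TPM. The WT replicates 1, 2 and 3 gave 1.56, 0.87 and 2.86 TPM, and values by library keep this order throughout. Every ENT1KO library was above every WT library, and replicate 12 lay far below the other 3. ENT1KO averaged 9.19 ± 2.99 TPM (SD, n = 4) and WT averaged 1.76 ± 1.01 TPM (SD, n = 3), a difference of 1.89 on the log2(TPM + 1) scale with a standard error of 0.34 (limma adjusted p = 0.00355). That scale understates the change of low genes. The authors' deposited table gives a log2 fold change of 2.22. As normalized counts the gene was at 138 to 297 in ENT1KO and 23.6 to 74.7 in WT. Its paralogue Art2a, which the file annotates as a polymorphic pseudogene, was at 0.24 TPM or less in every library, and reads of the 2 near-identical genes could be split between them.

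P2rx7 (chromosome 5, 122781974 to 122829495) encodes the ATP-gated channel. In the same replicate order, ENT1KO had 2.84, 4.01, 5.84 and 1.97 TPM and WT had 11.69, 12.98 and 9.92 TPM. All ENT1KO values lay below all WT values, with replicate 14 nearest to WT. The difference was -1.49 (SE 0.28, limma adjusted p = 0.00412), from means of 3.67 ± 1.67 (SD, n = 4) and 11.5 ± 1.54 TPM (SD, n = 3). Within ENT1KO the order of P2rx7 (replicate 15 lowest, then 11, 12 and 14) was also the order of the macrophage list sum, at 238, 613, 757 and 1596 TPM. That order was not particular to macrophage genes. The fibroblast list sum had it too, at 6.73, 68.7, 184 and 877 TPM, as did the sums of endothelial and NK cell lists. With the macrophage list's level as a covariate the P2rx7 difference was -0.22 (SE 0.32, limma adjusted p = 0.754). Macrophages are known to express P2rx7. The macrophage list sum did not overlap between genotypes either, so genotype and list level cannot be told apart. With this covariate none of the 8 genes passed in limma, and none had an unadjusted p under 0.05, while 3 of all genes tested passed (0.0217%), 1 higher (0.00725%) and 2 lower (0.0145%). The fibroblast list as covariate gave the same numbers of genes (0.0217%, 0.00725% and 0.0145%), and 1 of the 8 had an unadjusted p under 0.05.

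P2rx4 (chromosome 5, 122845607 to 122867801), a related ATP-gated channel that opens at lower ATP, lies 16112 bases from P2rx7. By replicate, ENT1KO had 12.7, 5.2, 12.8 and 5.76 TPM and WT had 21.96, 26.3 and 19.1 TPM. ENT1KO was lower without overlap, but its 4 libraries formed a higher and a lower pair that the macrophage list did not order in the same way. The difference was -1.30 (SE 0.32, limma adjusted p = 0.0118). Without WT replicate 2 it was -1.19 and stayed barely under the threshold (limma adjusted p = 0.0499968). With the macrophage list as a covariate it was -0.35 (SE 0.57, limma adjusted p = 0.788). Within each library the log2 ratio of P2rx7 to P2rx4 was -1.84 to -0.31 in ENT1KO and -0.96 to -0.86 in WT, so the ratio overlapped between genotypes. The means were -1.09 ± 0.63 (SD, n = 4) and -0.90 ± 0.056 (SD, n = 3). The pairs of genes set as ratios were chosen after their values were seen, so ratios carry no test.

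P2ry10 (chromosome X, 106132098 to 106148580) encodes a G protein-coupled receptor of lymphocytes that is placed in the P2Y family by sequence and is known to respond to lysophosphatidylserine. It was the most abundant of the 8, with 467, 376, 312 and 328 TPM in the ENT1KO libraries and 162, 97.2 and 211 TPM in the WT libraries. The groups were apart. The WT libraries followed the order of the CD8 T cell list sum (2975 TPM in replicate 2, 4650 in replicate 1 and 7183 in replicate 3), and the ENT1KO libraries did not, replicate 11 being highest in P2ry10 and replicate 12 in the list sum. The difference was 1.29 (SE 0.26, limma adjusted p = 0.00541). Its neighbour in sequence, P2ry10b, rose as well, from 7.74 ± 0.933 to 16.1 ± 2.71 TPM (limma adjusted p = 0.0024), and reads of paralogues can be shared.

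Panx1 (chromosome 9, 14913424 to 14956774), the channel through which ATP leaves cells, reached 45.1, 43.9, 48.6 and 54.2 TPM in the ENT1KO libraries. The WT libraries had 27.3, 22.3 and 43.7 TPM. WT replicate 3 almost reached the lowest ENT1KO library. The difference was 0.66 (SE 0.21, limma adjusted p = 0.03), and it lost its call when any 1 library other than WT replicate 3 was left out (limma adjusted p from 0.0501 to 0.0978).

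Cd38 and Bst1 are paralogues that stand 24567 bases apart on chromosome 5 (44025895 to 44069717 and 43976227 to 44001328) and moved in opposite directions. Cd38, a NAD glycohydrolase raised on activated and exhausted T cells, had 17.9, 21.8, 14.7 and 19.4 TPM in the ENT1KO libraries, against 12.9, 9.15 and 12.9 TPM in WT. The groups were apart by less than the spread within ENT1KO, with a difference of 0.62 (SE 0.17, limma adjusted p = 0.0185) that did not pass without WT replicate 2 (0.47, limma adjusted p = 0.0602). Bst1, best known from myeloid and stromal cells, had 1.61, 2.17, 3.12 and 1.19 TPM in ENT1KO, against 8.16, 9.64 and 5.6 TPM in WT. It fell without overlap by 1.55 on the log2 scale (SE 0.27, limma adjusted p = 0.00304), and its ENT1KO libraries had the same order as P2rx7 and the macrophage list. The fibroblast, endothelial and NK cell list sums shared that order. With the macrophage list as a covariate the difference was -0.53 (SE 0.40, limma adjusted p = 0.547). Within a library, the log2 ratio of Cd38 to Bst1, which no scaling of the library changes beyond the pseudocount, was 1.93 to 3.22 in ENT1KO and -0.07 to 1.08 in WT. Since Cd38 was higher and Bst1 lower, each without overlap, this ratio had to differ between genotypes. A different mix of cells would also change it, which was not tested.

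Nampt (chromosome 12, 32869544 to 32903348) had 51.7, 41.7, 47.2 and 37.2 TPM in the ENT1KO libraries, against 71.1, 73.9 and 49.6 TPM in WT. WT replicate 3 lay below ENT1KO replicate 11, so the groups overlapped. The difference was -0.52 (SE 0.17, limma adjusted p = 0.0328). The call was lost without ENT1KO replicate 12 or 15 or WT replicate 1 or 2, with limma adjusted p-values between 0.0742 and 0.112.

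The order of the 8 levels, which TPM allows since it corrects for length, differed between genotypes. In ENT1KO it ran from P2ry10 through Panx1, Nampt, Cd38, Art2b, P2rx4 and P2rx7 to Bst1. Panx1 and Nampt overlapped there, and so did each neighbouring pair from Art2b down to Bst1. In WT the order was P2ry10, Nampt, Panx1, P2rx4, Cd38, P2rx7, Bst1 and Art2b. Of the neighbouring pairs only Panx1 and P2rx4, and Cd38 and P2rx7, overlapped there. Cd38 (9.15 to 12.91 TPM) and Bst1 (5.6 to 9.64 TPM), which are not neighbours in that order, overlapped as well. Art2b was thus lowest of the 8 in WT, below Bst1 without overlap, and at the level of P2rx4 in ENT1KO. The log2 ratio of Art2b to P2rx7, the enzyme to the receptor it modifies, was 0.19 to 1.98 in the ENT1KO libraries and -2.90 to -1.50 in the WT libraries. Art2b was higher and P2rx7 lower, each without overlap, so this ratio had to differ between genotypes. The marker list sums differed between genotypes too, and whether both transcripts came from the same cells was not tested.

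The 8 genes were also compared relative to the T cell genes of the same library. The mean log2(TPM + 1) of the CD8 T cell identity list was subtracted in each library, which moves the median of all tested genes from 0.15 to -1.04, and 67.9% of genes then did not overlap between genotypes, 67.6% lower in ENT1KO and 0.29% higher. In limma on this scale 67.1% of genes passed, 66.9% lower and 0.159% higher, where p-values come out too small because the same list level enters every gene. Bst1, P2rx7, P2rx4, Nampt and Panx1 were lower without overlap, by 2.74, 2.68, 2.49, 1.71 and 0.53 (exact two-sided permutation p = 0.0286 for each, the smallest that 35 splits allow). Of these Panx1 changed direction against plain TPM. Cd38 did so too, at -0.57, with overlap (exact permutation p = 0.0857). P2ry10, at -0.43 ± 0.22 in ENT1KO (SD, n = 4) and -0.53 ± 0.12 in WT (SD, n = 3), differed by 0.10 (exact permutation p = 0.657). Art2b kept a positive difference of 0.70 but with overlap (exact permutation p = 0.143), since ENT1KO replicate 12 lay at -6.56, below the WT range of -6.45 to -6.21, and the other 3 at -5.41 to -5.30. No member was higher without overlap on this scale. These 8 permutation tests were not adjusted.

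**Figure D2:**
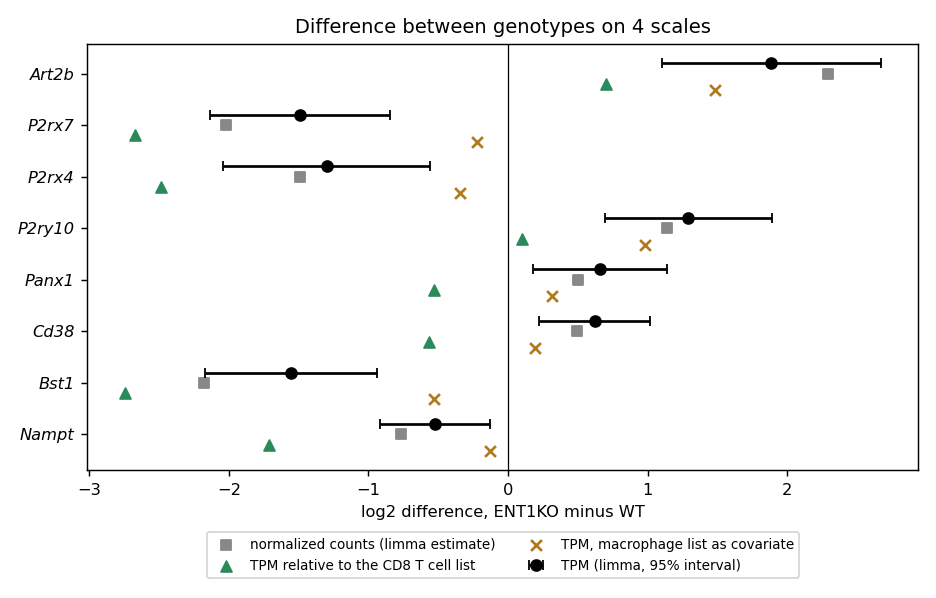
Log2 difference (ENT1KO minus WT) of each gene on TPM with its 95% limma interval, on normalized counts, relative to the CD8 T cell list, and adjusted for the macrophage list level. Relative to the T cell list, Art2b (0.70) and P2ry10 (0.10) stay right of 0 and the other 6 lie left of it. The covariate moves P2rx7 to -0.22, Bst1 to -0.53 and Art2b to 1.48.

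**Figure D3:**
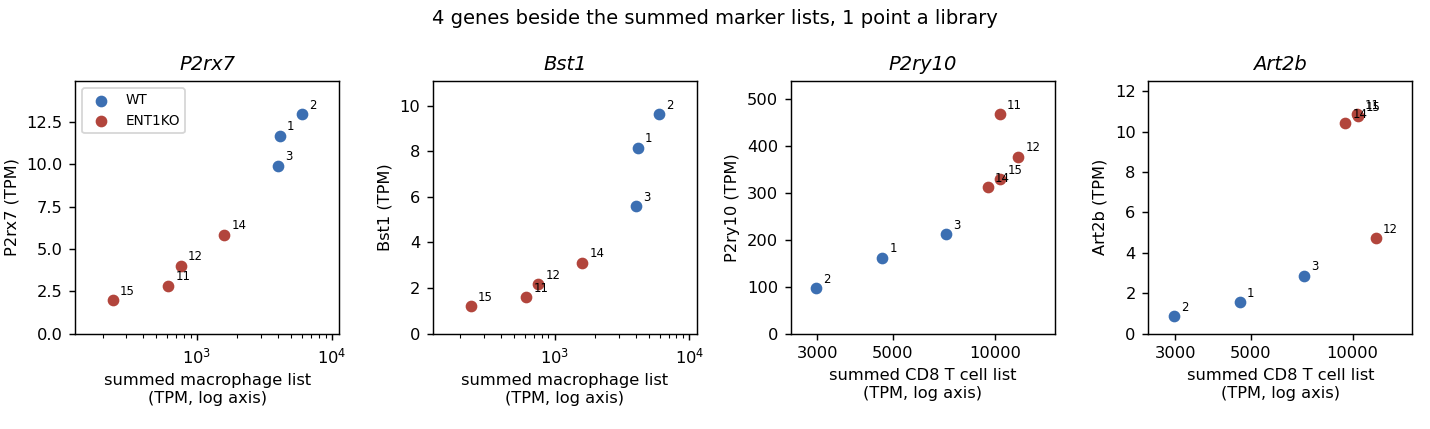
TPM of P2rx7 and Bst1 against the summed macrophage list, and of P2ry10 and Art2b against the summed CD8 T cell list, for the 3 WT and 4 ENT1KO libraries (log horizontal axes, points labelled by replicate). P2rx7 and Bst1 have the order of the macrophage list within ENT1KO, which the fibroblast, endothelial and NK cell list sums (not plotted) share. ENT1KO replicate 12 has the highest T cell list sum and the lowest Art2b of its group.

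The profiles nearest to each member were sought among 9519 abundant named genes, by the root mean square difference of centred log2(TPM + 1) values over the 7 libraries. P2rx7 lay nearest to Sema7a (0.07) and Plcg2 (0.10), and Bst1 to Anxa4 and Renbp (0.09 each). P2rx7 and Bst1 were also the closest pair among the 8, at 0.13. P2ry10 lay nearest to Ipcef1 and Rapgef6 (0.07 each), Cd38 to Abtb1 (0.06) and Epc2 (0.07), Panx1 to Slc9a3r1 (0.06) and Rftn1 (0.09), and Nampt to Atp7a (0.05) and mt-Rnr2 (0.06). P2rx4 had less close matches in Ifi205 (0.17) and Cfl2 (0.21). Art2b had the least close of all, Phf11c (0.28) and Cmah (0.29).

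Of the 7 P2X genes, P2rx7 and P2rx4 were the 2 tested. P2rx5 and P2rx1 stayed at 0.76 TPM or less, and P2rx2 was listed at 0 throughout. Among P2Y genes 7 of 9 were tested, with 2 higher (P2ry10 and P2ry10b) and 3 lower, beside 27.5% and 23.1% of all genes, and a median of -0.73 beside 0.15 for all genes. P2ry2, 1 of the 3 lower, reached 1 TPM in WT libraries alone and so passed the filter through the group where it was high. The P2Y genes lower numbered 4 on normalized counts (28% of all genes) and 4 in the authors' deposited table (25.8%). P2ry6, a UDP receptor of myeloid cells, fell from 17.5 ± 3.79 to 2.43 ± 1.96 TPM (limma adjusted p = 0.0017), and P2ry12, an ADP receptor, from 7.36 ± 1.61 to 2.18 ± 0.0947 TPM (limma adjusted p = 0.0015). P2ry14, a UDP-sugar receptor, was at 31.8 ± 15.5 against 19.5 ± 5.61 TPM (limma adjusted p = 0.24).

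The counts of the lists that follow stand beside the same 27.5% higher and 23.1% lower over all genes tested. Of 3 tested ecto-ADP-ribosyltransferases, Art2b and Art4 rose (Art4 1.85 ± 0.797 against 0.567 ± 0.283 TPM) and Art3 fell (0.255 ± 0.137 against 3.59 ± 0.686 TPM). Art4 passed the filter of 1 TPM in 3 libraries through ENT1KO alone, and Art3 through WT alone. Only 1 of the list was higher in limma without ENT1KO replicate 11 or 15 or WT replicate 1 or 2. Of 10 tested ATP release genes, 4 rose and 2 fell, with a median of 0.06. On normalized counts 3 were higher and 3 lower, 3 and 4 in the authors' deposited table, and without WT replicate 1 or 2 only 2 were higher in limma. Slc17a9, the vesicular nucleotide transporter, rose from 6.32 ± 1.49 to 17.1 ± 4.37 TPM (limma adjusted p = 0.00341). Ank, which exports ATP and pyrophosphate, fell from 247 ± 75.9 to 31.2 ± 10.8 TPM (limma adjusted p = 0.00121), and Gja1 (connexin 43) from 120 ± 45.9 to 6.62 ± 8.63 TPM. Of 6 tested surface nucleotide and NAD enzymes 2 rose (Cd38 and Nt5e) and 3 fell, with a median of -0.66. Enpp1 fell from 35.9 ± 9.39 to 8.31 ± 1.65 TPM and Enpp3 from 6.51 ± 2.6 to 0.568 ± 0.82 TPM, both hydrolases of extracellular ATP. Nt5e (CD73) rose from 42.2 ± 7.6 to 54.8 ± 3.54 TPM (limma adjusted p = 0.0443). That call was lost in other fits: the list had 1 gene higher, Cd38, on normalized counts, under quantile normalization and in the authors' deposited table, and 1 or 0 higher when any library other than WT replicate 3 was left out. Entpd1 (CD39) was at 60.4 ± 16.4 against 49.9 ± 3.55 TPM (limma adjusted p = 0.311).

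Of 13 genes listed as P2X7 effectors 5 rose and 4 fell, with a median of 0.05 (27.5% and 23.1% of all genes). Those higher and lower numbered 4 and 6 on normalized counts and in the authors' deposited table, and without WT replicate 1 or 2 only 3 were higher in limma. Inflammasome genes went both ways. The adaptor Pycard (0.52, limma adjusted p = 0.0401), the protease Casp1 (0.52, limma adjusted p = 0.00815) and Nek7, which binds NLRP3 (0.54, limma adjusted p = 0.0156), rose on the log2(TPM + 1) scale, and were named after their values were seen. The sensor Nlrp3 fell from 21.5 ± 5.51 to 2.99 ± 1.82 TPM (limma adjusted p = 0.00149), Il1b from 276 ± 88.0 to 48.5 ± 25.2 TPM, and Il18 from 6.12 ± 1.01 to 1.97 ± 0.501 TPM. Stk17b, a kinase on that list that is not an established P2X7 effector, rose from 284 ± 79.8 to 667 ± 88.7 TPM. The macrophage list sum was lower in the same libraries. With that list as a covariate 0 of these genes were higher and 0 lower in limma, where 0.0217% of all genes passed. Genotype and list level cannot be told apart, and the cause of these falls was not tested.

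Of 15 tested NAD synthesis genes 5 rose and 2 fell, with a median of 0.05 (27.5% and 23.1% of all genes). Those higher and lower numbered 4 and 5 on normalized counts and in the authors' deposited table, so the balance turned, and without ENT1KO replicate 11 or 12 or WT replicate 2 only 3 were higher in limma. Haao, an enzyme of synthesis from tryptophan, rose from 8.66 ± 1.38 to 21.5 ± 5.001 TPM (limma adjusted p = 0.0027), and Slc25a51, the mitochondrial NAD carrier, from 23.4 ± 4.03 to 30.6 ± 2.7 TPM (limma adjusted p = 0.0457). Nnmt, which methylates nicotinamide and so removes it from salvage, fell from 4.61 ± 2.5 to 0.333 ± 0.395 TPM and passed the filter through WT alone. Nadk, the NAD kinase, was at 48.1 ± 3.45 against 56.3 ± 3.63 TPM (limma adjusted p = 0.0898). Of 21 tested intracellular NAD consumers, the sirtuins and PARP family, 9 rose and 0 fell in limma, with a median of 0.36 (27.5% and 23.1% of all genes). Those lower numbered 0 at an unadjusted p under 0.05 and 2 both on normalized counts and in the authors' deposited table. Parp14 rose from 31.2 ± 4.68 to 65.1 ± 9.99 TPM and Parp9 from 51.4 ± 5.87 to 89.6 ± 7.75 TPM (limma adjusted p = 0.00175 for each), both of them interferon-induced. Relative to the CD8 T cell list 0 genes of these 8 pathway lists were higher at an adjusted p of 0.05 in limma, and 11 NAD consumers, 9 NAD synthesis genes, 8 P2X7 effectors, 6 ATP release genes and 5 surface enzymes were lower, where 66.9% of all genes were.

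**Figure D4:**
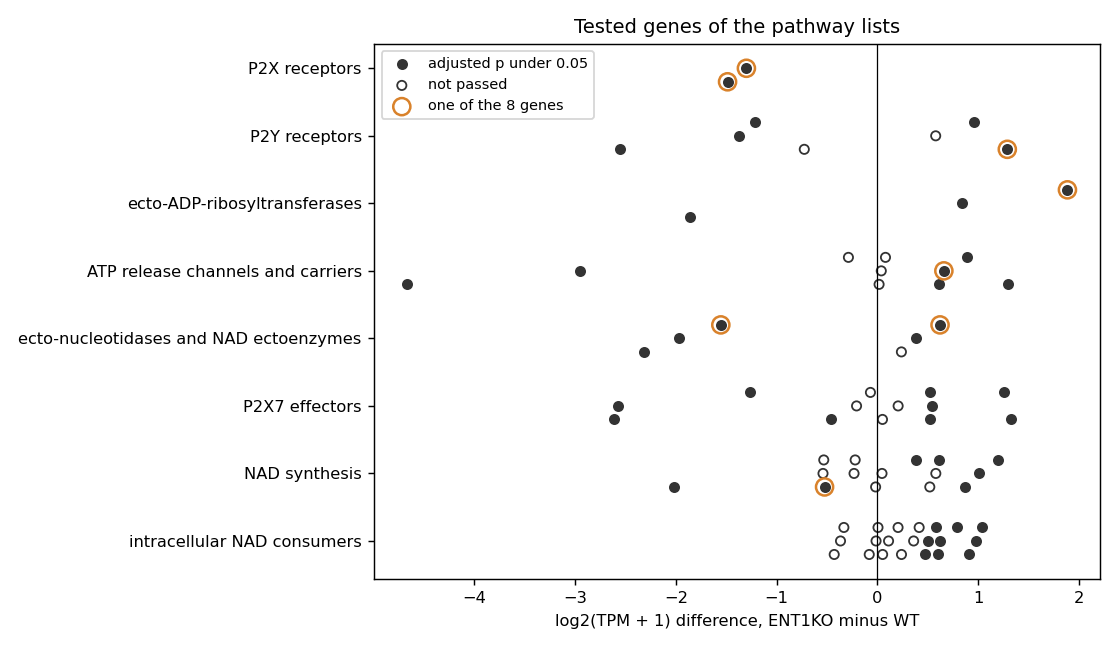
Log2(TPM + 1) difference (ENT1KO minus WT) of every tested gene of the 8 pathway lists, filled where the limma adjusted p is under 0.05 and ringed for the 8 genes (P2ry10 and Cd38 each stand in the list of their family). P2X genes lie left of 0 and called NAD consumers right of it, while the other lists reach both sides.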

How the data were processed

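RNA-seq of 7 sorted CD8+ cell samples (4 ENT1KO, 3 WT) was used as the authors deposited it: a stranded gene table in TPM, and a comparison table with normalized counts (a signal, gene counts divided by a size factor), log2 fold changes, a test score and p-values. Tools listed without roles in the submitters' processing notes are STAR 2.7.1a, RSEM, Trimmomatic 0.35 and 0.38 and DESeq2 1.30.1, with the build GRCm39. Raw counts were not used here, so no count test was run.

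Differences were tested on log2(TPM + 1) for genes reaching 1 TPM in 3 or more samples, with limma 3.58.1 (R 4.3.3; trend, genotype as the only term, Benjamini-Hochberg over 13798 genes). Levels relative to the CD8 T cell list were compared by exact two-sided permutation over 35 splits. Alternatives changed the pseudocount, filter, scaling, covariates and samples. The 8 genes and all lists were chosen with earlier results of these data known. Of each pathway list, genes were named from the 2 most abundant and the 2 with the smallest limma p outside the 8, and for each of the 8 the 2 nearest profiles among genes with a mean of at least 5 TPM. The values of 1 gene of the pathway lists are not reported here.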

Additional observations from a re-analysis of the deposited data

Results flagged for a closer look

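Each value below stood apart from the other 3 ENT1KO libraries by Dixon's criterion, applied to 34 groups of 4 libraries. Chance marks about 1 in 20 such groups. Art2b was at 4.72 TPM in ENT1KO replicate 12, against 10.4 to 10.9 TPM in the others. Relative to the CD8 T cell list it was at -6.56 there (log2), and the summed ecto-ADP-ribosyltransferases, of which Art2b is the most abundant in ENT1KO, were at 5.99 TPM in the same library. P2ry10 relative to that list was at -0.11 (log2) in ENT1KO replicate 11, above the other 3. The summed endothelial list was at 13.1 TPM in ENT1KO replicate 14, the library that also had the highest macrophage and fibroblast sums of its group.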

How the results depend on the processing

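Directions of all 8 genes held under both other pseudocounts, both other filters, quantile normalization, normalized counts and each left-out library. Panx1 and Nampt lost their calls when any gene with a value above 0 was tested (limma adjusted p = 0.06 and 0.0639). Relative to the CD8 T cell list 22 genes were higher and 9237 lower in limma, with 0 of the 8 higher, and Cd38 (-0.57) and Panx1 (-0.53) reversed. With the macrophage list as a covariate 1 gene was higher and 2 lower, and the same numbers were found with the fibroblast list. Of the 8, 0 were higher and 0 lower in either fit, with an unadjusted p under 0.05 in 0 and 1 of them, and in 1687 and 3005 of all genes. The authors' deposited table has 4877 genes lower. Leaving out 1 library gave 2315 to 3748 genes higher and 2525 to 3145 lower, with 2 to 4 and 3 to 4 of the 8. The lowest number higher, 2315 genes and 2 of the 8, came without WT replicate 2. Without ENT1KO replicate 11, the P2ry10 difference relative to the T cell list (-0.00726) and that of the P2rx7 to P2rx4 log2 ratio (0.064) reversed. Over all left-out libraries these ranged from -0.00726 to 0.15 and from -0.45 to 0.064. The ratio alternatives were chosen after seeing the data. The cause was not tested for any of these. No paired analysis was possible because the groups share no replicate numbers. With 3 and 4 libraries the smallest exact p is 0.0286, and Art2b, Bst1 and P2rx7 rest on low TPM.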

Other observations

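Sums of other cell type lists also differed between genotypes. Neutrophil genes summed to 3.19 to 13.3 TPM in ENT1KO and 97.2 to 118 TPM in WT, and endothelial genes to 4.55 to 13.1 and 31.7 to 53.3 TPM. NK cell genes summed to 66.7 to 274 and 432 to 587 TPM, and erythroid and platelet genes to 58.5 to 252 and 748 to 2060 TPM. The NK sum was led by Fcer1g (98.6 TPM in ENT1KO against 251 TPM in WT) and Tyrobp (46.3 against 194 TPM). Of its 7 genes 4 were lower in limma and 3 did not pass, where 23.1% of all genes were lower. Klra8, 1 of the 4, passed the filter through WT alone. Klrb1c (14.05 against 9.37 TPM) and Klra9 (11.8 against 8.04 TPM) had higher means in ENT1KO, with overlap. Sums of CD4 and regulatory T cell genes overlapped, at 62.03 to 107 TPM in ENT1KO and 52.3 to 75.7 TPM in WT. P2ry14 was spread in ENT1KO, at 47, 43, 21.3 and 15.9 TPM in replicates 11, 12, 14 and 15 against 15.2 to 25.8 TPM in WT.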
